A study of Mus musculus with 24 samples.

Results

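The red cell miRNAs miR-144, miR-451a and miR-486 were followed in small RNA sequencing libraries of whole mouse lung. They were taken by name: mmu-miR-144-3p and mmu-miR-144-5p, the 2 arms of 1 hairpin, mmu-miR-451a, mmu-miR-486a-5p and mmu-miR-486b-5p, written below without the prefix for mouse. These 5 names were found among the 1657, 1707 and 1767 mature miRNAs listed at day 14, day 90 and day 180. miR-486a-5p and miR-486b-5p had the same count in all 8 libraries at day 14 and at day 90 and were used as 1 measurement there. At day 180 they differed and were summed, so that miR-486-5p below stands for both and there were 4 measurements in all. All 4 passed the filter on low counts at every time point.

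The lungs came from C57BL/6 mice, an inbred laboratory strain, aged 6 to 8 weeks at the start. The irradiated groups received 15 Gy of X-rays to the whole thorax, with the rest of the body kept out of the field, and the control groups received none. There were 4 libraries in each of the 6 groups (control and irradiated at day 14, day 90 and day 180). Nothing in the labels ties a library to an animal, and p-values measure only the spread between these libraries, which may be technical. Rinsing of blood from the lungs is mentioned nowhere in the sources used here. In whole tissue, fewer red cells and less of a miRNA in each cell cannot be told apart.

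miR-144 and miR-451a are cut from the same primary transcript, which the erythroid transcription factor GATA1 switches on as red cells mature. The hairpin of miR-451a is too short for Dicer and is cut by Argonaute 2 instead, whereas miR-144 takes the usual route through Dicer. miR-486 lies in the gene of the red cell membrane protein ankyrin 1 (Ank1), which is transcribed in red cell precursors and in muscle. Mature red cells keep these miRNAs after losing the nucleus, and the lung holds a large volume of blood. A lung miRNA profile therefore carries a red cell part beside that of the tissue.

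The mature sequences are shown because the arms and the cluster partners are compared below. They are written 5′ to 3′ with the seed, bases 2 to 8, in capitals, and come from RefSeq (GRCm38.p6).
miR-144-3p: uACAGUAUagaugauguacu
miR-144-5p: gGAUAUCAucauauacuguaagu
miR-451a: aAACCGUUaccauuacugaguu
None of these 3 seeds was shared with another of the 1679 mature miRNA sequences in the RefSeq table. miR-144-3p shared bases 2 to 7 with 1 of them, miR-101a-3p.

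The hairpins are shown for the place of the arms within them, with the mature miRNAs in capitals.
Mir144, chr11:78073005-78073070, plus strand: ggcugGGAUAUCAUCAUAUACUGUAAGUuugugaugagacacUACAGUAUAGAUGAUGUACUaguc
Mir451a, chr11:78073170-78073241, plus strand: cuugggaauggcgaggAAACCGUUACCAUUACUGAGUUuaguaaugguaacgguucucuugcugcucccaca
The 2 hairpins lie 99 bases apart on chromosome 11 (GRCm38), and the protein-coding gene Eral1 follows on the minus strand (78073376 to 78080383). Mature miR-451a runs from base 17 to base 38 of its hairpin and so across the loop, while the miR-144 arms sit on either side of theirs, at bases 6 to 28 and 43 to 62. Mir486 lies on chromosome 8, 23142555 to 23142682, plus strand, within Ank1 and outside every annotated Ank1 exon (GENCODE M21).

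Total counts lay between 2832205 and 3695133 per library. Irradiated library 1 of day 180 stood apart from the others: it had the lowest total, and its TMM scaling factor was 0.814 against 0.927 to 1.10 in the other 23 libraries. Results that rest on it are given with and without it. Levels below are CPM, counts scaled to a common library total with TMM factors within a time point, and errors are SD with n = 4 unless stated. Of the other cell types, lung epithelial miRNAs (8 of 8 measured, summed level 46628 to 84372 CPM over all libraries) and endothelial miR-126a (both arms, 35791 to 60731 CPM) were abundant, and neither had a marker at 0 throughout. Comparisons used edgeR's quasi-likelihood test with Benjamini-Hochberg adjustment over all miRNAs tested at a time point and a threshold of 0.05.

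miR-451a was the most abundant of the 4, with 2.04% to 3.34% of the counts of a library, and ranked 6, 6 and 9 among all miRNAs by summed count at day 14, 90 and 180. At day 14 it stood at 25428, 30042, 35125 and 29808 CPM in control libraries 1 to 4 and at 27555, 34358, 33456 and 30946 CPM in irradiated libraries 1 to 4. At day 90 it stood at 27206, 29883, 30731 and 24789 CPM in controls and at 26421, 29909, 28012 and 25583 CPM in irradiated lungs. The groups overlapped at both time points, and every irradiated library lay within the control range. miR-451a is known to restrain the adaptor protein Ywhaz in maturing red cells.

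The log2 fold change of miR-451a was 0.07 ± 0.12 (SE) at day 14 and -0.03 ± 0.09 at day 90, with edgeR adjusted p of 0.966 and 0.943. At day 180 it stood at 23704, 24312, 29775 and 30479 CPM in controls and at 36975, 26383, 18573 and 20071 CPM in irradiated libraries 1 to 4. Irradiated library 1 lay above all controls, libraries 3 and 4 below all of them. The log2 fold change was -0.09 ± 0.22 (edgeR adjusted p = 0.844), or -0.32 without irradiated library 1. On the authors' deposited RPM scale, whose total holds more than the listed miRNAs, library 1 stood at 6471 RPM, inside the control range of 5742 to 6812.

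**Figure D1:**
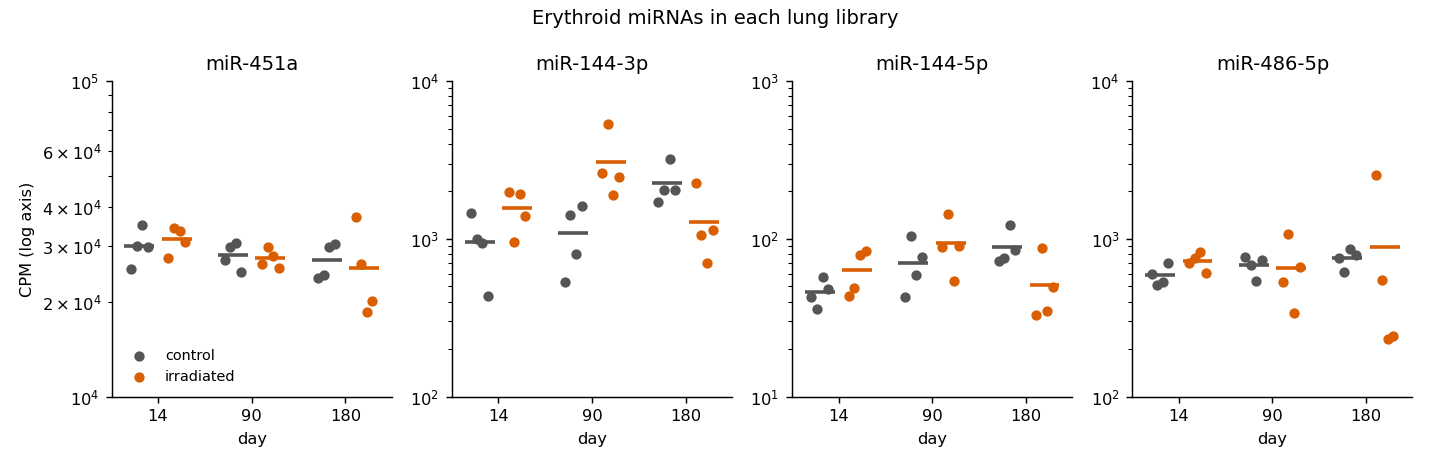
CPM (log axis) of miR-451a, miR-144-3p, miR-144-5p and miR-486-5p in every library by day, with grey points for control and orange points for irradiated lungs, and a bar at each group mean. The miR-144-3p points of irradiated lungs lie above all controls at day 90 (1897 to 5321 against 537 to 1618 CPM), while miR-451a stays between 18573 and 36975 CPM in all 24 libraries.

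miR-144-3p, the guide arm of its hairpin, varied far more than its cluster partner. At day 14 it stood at 1462, 992, 944 and 432 CPM in control libraries 1 to 4 and at 1973, 951, 1915 and 1398 CPM in irradiated libraries 1 to 4. Irradiated libraries 1 and 3 lay above all controls, the other two within their range. This was a log2 fold change of 0.70 ± 0.36 (SE), 1.63-fold (edgeR adjusted p = 0.907, exact permutation p = 0.171, two-sided, 4 against 4 libraries, which cannot go below 0.0286).

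At day 90 miR-144-3p was higher in every irradiated lung than in any control. Controls held 537, 1415, 800 and 1618 CPM and irradiated lungs 2630, 5321, 1897 and 2457 CPM. The means were 1093 ± 508 and 3076 ± 1529 CPM, a log2 fold change of 1.49 ± 0.40 (SE) or 2.82-fold. The edgeR adjusted p was 0.156, which did not pass, and the exact permutation p was 0.0286, the smallest possible. miR-144-3p ranked 14 among 557 miRNAs by p. It passed with DESeq2 (adjusted p = 0.016) and without the filter on low counts (0.000154), and its adjusted p lay between 0.000154 and 0.39 in all alternatives. Leaving out any 1 library kept the log2 fold change between 1.09 and 1.73.

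At day 180 the order was the other way. miR-144-3p stood at 1716, 2041, 3212 and 2051 CPM in controls and at 2248, 1060, 709 and 1132 CPM in irradiated libraries 1 to 4. Irradiated libraries 2 to 4 lay below all controls, and library 1 lay above 3 of them. On the deposited RPM scale all irradiated libraries, library 1 included, lay below all controls (183 to 393 against 416 to 717 RPM). How many of all miRNAs were separated on that scale was not counted. On the CPM scale 5.44% were separated downward, and miR-144-3p was not among them. The log2 fold change of -0.81 ± 0.36 (SE) had an edgeR adjusted p of 0.285 and an exact permutation p of 0.114. Without irradiated library 1 it was -1.22 (adjusted p = 0.0628). On the TMM scale the median miRNA at this time point stood at 0.14, and on the deposited RPM scale at 0.00897, so that miR-144-3p lay 0.95 log2 units below the median miRNA.

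miR-144-5p, the passenger arm of the same hairpin, was about as variable at a lower level, with 76 to 497 reads in a library. At day 14 it stood at 42.6, 36.2, 57.4 and 48.3 CPM in controls and at 43.8, 49.1, 79.5 and 83.6 CPM in irradiated lungs, with libraries 3 and 4 above all controls. At day 90 controls held 42.8, 104, 58.8 and 76.3 CPM and irradiated lungs 88.5, 144, 54.2 and 90.5 CPM, and only irradiated library 2 lay above all controls. At day 180 controls held 72.4, 75.5, 122 and 84.9 CPM and irradiated lungs 33.0, 87.2, 35 and 49.3 CPM, with library 2 alone inside the control range. The log2 fold changes were 0.47 ± 0.27, 0.42 ± 0.34 and -0.79 ± 0.36 (SE) at day 14, 90 and 180. None passed (edgeR adjusted p = 0.92, 0.68 and 0.285).

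miR-486-5p showed no separation of the groups at any time point. At day 14 it stood at 604, 510, 533 and 707 CPM in controls and at 706, 755, 821 and 608 CPM in irradiated lungs. The log2 fold change was 0.30 ± 0.16 (SE, edgeR adjusted p = 0.92), with an exact permutation p of 0.0857. At day 90 controls held 770, 686, 545 and 732 CPM and irradiated lungs 537, 1079, 341 and 664 CPM. The mean difference was small (log2 fold change -0.06 ± 0.31, edgeR adjusted p = 0.974), but irradiated lungs spread 3.17-fold between lowest and highest against 1.41-fold in controls.

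At day 180 miR-486-5p stood at 758, 617, 861 and 794 CPM in controls and at 2537, 552, 233 and 242 CPM in irradiated libraries 1 to 4. Irradiated library 1 lay above all controls and the other 3 below all of them. The log2 fold change was 0.23 ± 0.70 (SE, edgeR adjusted p = 0.87), and its sign rests on that library: without it the value was -1.15 (adjusted p = 0.0832). On the deposited RPM scale, with library 1 included, it was -0.54 (limma adjusted p = 0.685).

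**Figure D2:**
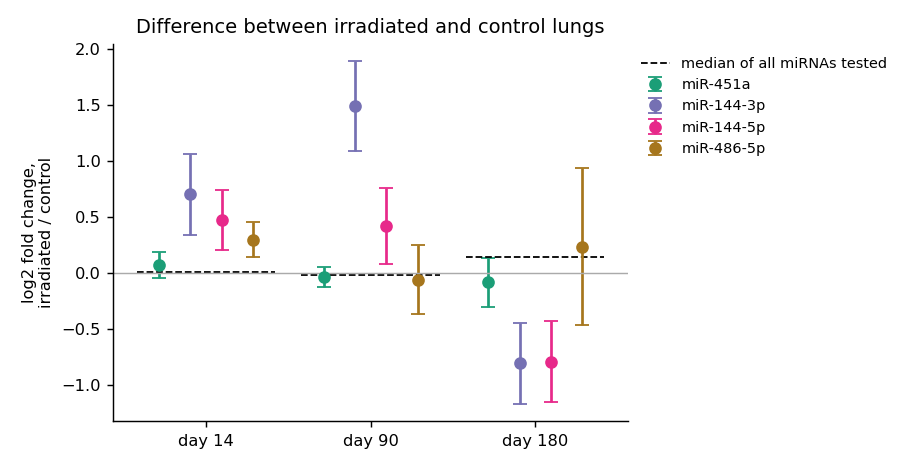
Log2 fold change of irradiated over control lungs (points, with SE as bars) for the 4 measurements at each day, with a dashed line at the median of all miRNAs tested. miR-144-3p stands at 1.49 at day 90 and at -0.81 at day 180, while miR-451a stays within 0.09 of 0 at each day.

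Across the 3 time points none of the 4 measurements passed edgeR's test. The test called 0% of the 498 miRNAs at day 14, 0.359% of the 557 at day 90 and 0% of the 551 at day 180. An unadjusted p under 0.05 was found for 27 (5.42%), 71 (12.7%) and 93 (16.9%) of them, and DESeq2 called 1, 19 and 30. Among the 4, 0, 1 and 0 had an unadjusted p under 0.05 and 0, 1 and 0 passed with DESeq2, miR-144-3p at day 90 in both cases. In 4.85% of all miRNAs tested at day 90 every irradiated library lay above every control, as it did for 1 of the 4, and in 2.33% every one lay below. On the CPM scale no measurement was separated in this way at day 14 or day 180, where 0.803% and 5.81% of all miRNAs were separated upward and 1.61% and 5.44% downward.

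Ordered by group mean, miR-144-3p ran from control day 14 (958 ± 421 CPM) through control day 90 (1093 ± 508), irradiated day 180 (1287 ± 667), irradiated day 14 (1559 ± 481) and control day 180 (2255 ± 657) to irradiated day 90 (3076 ± 1529). Only the step from irradiated day 14 to control day 180 exceeded the larger of the SDs of its neighbours, and with 1 scaling over all 24 libraries it did not (1722 ± 476 and 2160 ± 575 CPM). The 3 tables were made and scaled separately, so levels of different days are set side by side without a test. For miR-144-5p, miR-451a and miR-486-5p no step between neighbouring groups exceeded the larger SD with scaling within a time point. With 1 scaling over all libraries the step of miR-451a from control day 90 (26499 ± 1666 CPM) to control day 14 (33624 ± 4859 CPM) did, and its group means ran from 23876 to 35250 CPM. With scaling within a time point, group means ran from 46.1 to 94.2 CPM for miR-144-5p, from 25500 to 31579 CPM for miR-451a and from 588 to 891 CPM for miR-486-5p.

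The shift of miR-144-3p relative to miR-451a needs no scaling, since both counts come from the same library. A ratio of reads is not a ratio of molecules, because adaptor ligation favours some sequences, and it is compared only between libraries. At day 14 there were 5.75, 3.30, 2.69 and 1.45 reads of miR-144-3p per 100 reads of miR-451a in controls and 7.16, 2.77, 5.72 and 4.52 in irradiated lungs, and the groups overlapped. At day 90 there were 1.97, 4.74, 2.60 and 6.53 in controls and 9.95, 17.8, 6.77 and 9.60 in irradiated lungs. All irradiated libraries lay above all controls, library 3 only just. At day 180 there were 7.24, 8.39, 10.8 and 6.73 in controls and 6.08, 4.02, 3.82 and 5.64 in irradiated lungs, and all irradiated libraries, library 1 included, lay below all controls.

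On the log2 scale the ratio of miR-144-3p to miR-451a differed by 0.70 at day 14 (-5.09 ± 0.82 in controls, -4.39 ± 0.59 in irradiated lungs), by 1.55 at day 90 (-4.82 ± 0.79, -3.27 ± 0.58) and by -0.77 at day 180 (-3.62 ± 0.30, -4.38 ± 0.34). The exact permutation p was 0.229, 0.0286 and 0.0286. With Benjamini-Hochberg adjustment over the 9 comparisons made (3 ratios at 3 time points) the permutation p was 0.514, 0.0857 and 0.0857.

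The radiation effect on this ratio differed between day 180 and day 90 by -2.31 log2 units. Relabelling the libraries within each time point, 4900 ways in all, gave an exact permutation p of 0.000408, the smallest these can give, and 0.00367 after Benjamini-Hochberg adjustment over 9 such differences. Without any 1 library the difference stayed between -2.61 and -2.03. Between day 180 and day 14 it was -1.47 (exact permutation p = 0.0171, adjusted 0.0771), and between day 90 and day 14 it was 0.85 (0.369, adjusted 0.454). These tests of differences were added after the values had been seen. The groups were already separated in opposite directions at day 90 and day 180. That separation alone fixes the smallest p, so this p adds nothing to it.

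In edgeR's fit of all 24 libraries the radiation effect on miR-144-3p itself differed by -2.34 ± 0.58 (SE) between day 180 and day 90 (edgeR adjusted p = 0.119). The adjusted p was 0.0221 without irradiated library 1 of day 180 and 0.0409 without control library 4 of day 90. The fit called 0% of 623 miRNAs in each of the 3 differences between days, with 28 (4.49%), 70 (11.2%) and 91 (14.6%) at an unadjusted p under 0.05 (day 90 minus 14, day 180 minus 14, day 180 minus 90) and 1, 3 and 2 called by DESeq2. For miR-144-5p the difference between day 180 and day 90 was -1.23 ± 0.50 (adjusted p = 0.289). For miR-451a it was -0.09 ± 0.23 (0.896) and for miR-486-5p 0.24 ± 0.71 (0.906).

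**Figure D3:**
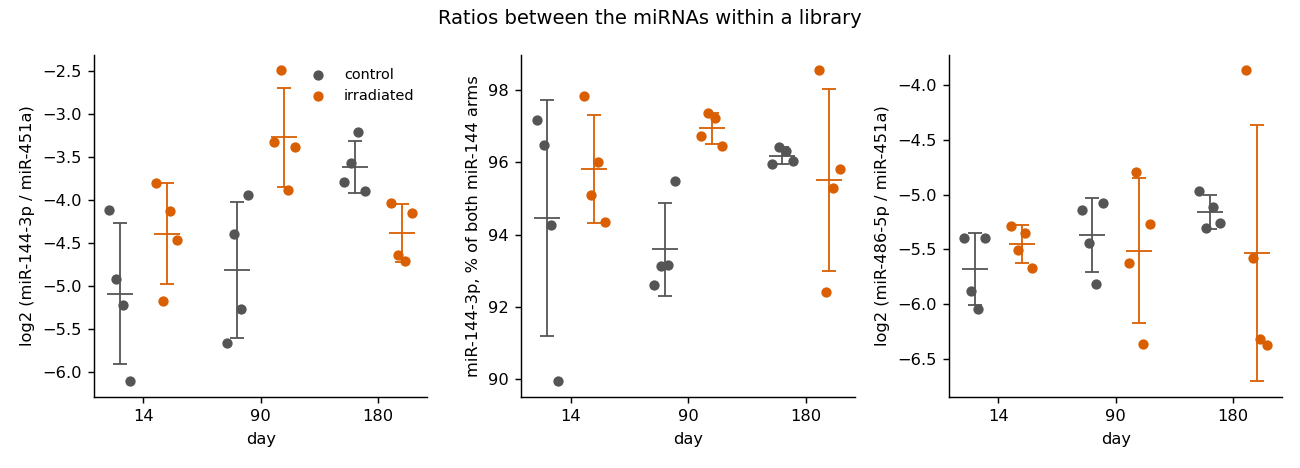
Within-library ratios by day: log2 of miR-144-3p over miR-451a, the share of miR-144-3p in both miR-144 arms (percent) and log2 of miR-486-5p over miR-451a, with group means and SD bars (grey control, orange irradiated). In the first panel the irradiated lungs lie above all controls at day 90 and below all controls at day 180.

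The share of miR-144-3p in the reads of both miR-144 arms separated the groups at day 90, but did not pass after adjustment. miR-144-3p took 92.6%, 93.1%, 93.2% and 95.5% of the reads of both arms in controls and 96.7%, 97.4%, 97.2% and 96.4% in irradiated lungs, so that the groups did not overlap. The means were 93.6 ± 1.29% and 96.9 ± 0.427%, a difference of 3.35 percentage points with an exact permutation p of 0.0286 (0.0857 adjusted over the 9 ratio comparisons). At day 14 the share was 94.5 ± 3.26% in controls and 95.8 ± 1.50% in irradiated lungs, and at day 180 96.2 ± 0.232% and 95.5 ± 2.52%, with overlapping groups (exact permutation p = 0.543 and 0.6). At day 180 the controls kept within 96.0% to 96.4%, while irradiated libraries ran from 92.4% in library 2 to 98.6% in library 1. The 3p arm alone separated the groups at day 90, and the log2 fold changes of the arms at day 180 were -0.81 and -0.79. The difference of the share's radiation effect between day 180 and day 90 was -4.02 percentage points (exact permutation p = 0.031, adjusted 0.0931), or -2.98 without irradiated library 2 of day 180 (0.0649).

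The log2 ratio of miR-486-5p to miR-451a differed by 0.23, -0.14 and -0.37 between irradiated and control lungs at day 14, 90 and 180, with overlapping groups and exact permutation p of 0.286, 0.743 and 0.571. Without irradiated library 1 the day 180 difference was -0.93, and the other 3 irradiated libraries all lay below all controls (exact permutation p = 0.0571, the smallest 3 against 4 allow). Its radiation effect differed between day 180 and day 14 by -0.60 (exact permutation p = 0.341), or by -1.16 without irradiated library 1 of day 180 (0.00571). Its control SD was 0.33, 0.34 and 0.15, and the SD of irradiated lungs was 0.17, 0.66 and 1.17.

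miR-486a-5p and miR-486b-5p were listed with different counts only at day 180. Controls held 1206, 825, 1889 and 957 reads of miR-486a-5p and 1746, 1512, 1011 and 1617 of miR-486b-5p. Irradiated libraries 1 to 4 held 4614, 57, 275 and 239 reads of miR-486a-5p and 1230, 1917, 651 and 640 of miR-486b-5p. The share of miR-486a-5p ran from 2.89% (95% Wilson interval 2.24 to 3.72%, counting error only) in irradiated library 2 to 79.0% (77.9 to 79.98%) in irradiated library 1, against 35.3% to 65.1% in controls. Since the counts of both were identical at the earlier days, how reads were divided between these miRNAs is uncertain, and their sum is used elsewhere. The sums were 2952, 2337, 2900 and 2574 reads in controls and 5844, 1974, 926 and 879 in irradiated lungs.

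**Figure D4:**
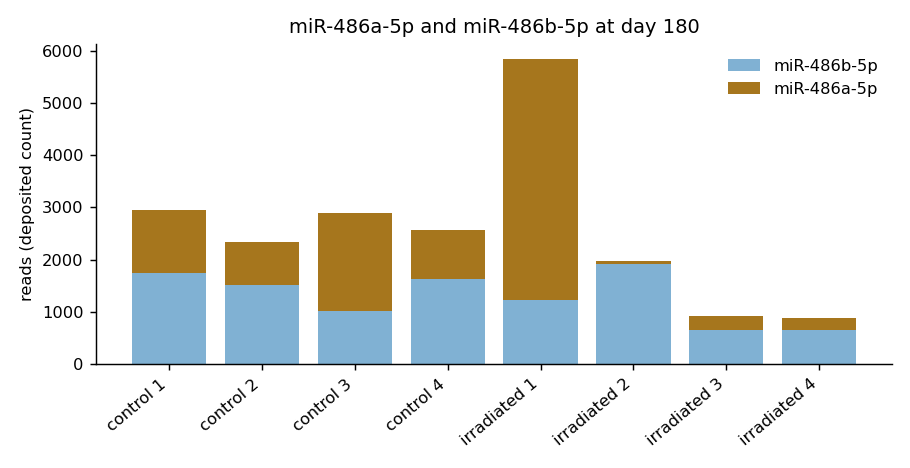
Deposited read counts of miR-486a-5p (brown) and miR-486b-5p (blue) stacked for each library of day 180. Irradiated library 1 reaches 5844 reads, most of them miR-486a-5p, and irradiated libraries 3 and 4 stay at 926 and 879 reads.

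The opposite arms of the miR-486 hairpins were measured too. miR-486b-3p followed the sum at day 180, with 1020 reads in irradiated library 1, 269, 127 and 124 in libraries 2 to 4 and 269 to 450 in controls. miR-486a-3p did not: it had 47 reads in irradiated library 1, the fewest of the day, and 65 to 116 in the others, against 108 to 152 in controls. Its log2 fold change was 0.44 ± 0.22, 0.52 ± 0.35 and -0.70 ± 0.29 (SE) at day 14, 90 and 180 (edgeR adjusted p = 0.907, 0.656 and 0.266). miR-451b, from the other strand of the miR-451a hairpin, was looked for and was not listed at any time point.

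Of 13 other miRNAs known to be abundant in red cells, all 13 were tested at each time point and 0 passed in either direction, beside 0%, 0.359% and 0% of all miRNAs. They were measured in whole lung, and the part of their reads that came from red cells was not tested. At day 14, 5 had a log2 fold change above 0 and 8 below, with a median of -0.10 against 0.01 for all miRNAs tested, of which 52% lay above 0. At day 90, when miR-144-3p was highest, 2 lay above 0 and 11 below, with a median of -0.28 against -0.02, and 48.1% of all miRNAs lay above 0. In 2 of the 13 the groups did not overlap there: miR-96-5p was higher in every irradiated library (1413 ± 520 against 911 ± 87.1 CPM in controls, edgeR adjusted p = 0.291) and miR-15b-5p lower (1476 ± 215 against 2071 ± 383 CPM, 0.268). Of all miRNAs tested at day 90, 4.85% were separated upward and 2.33% downward. At day 180, 5 lay above 0 and 8 below, with a median of -0.12 against 0.14, and 60.3% of all miRNAs lay above 0. The irradiated mean of miR-16-5p was 22869 ± 2116 CPM, that of controls 22460 ± 2807 CPM (edgeR adjusted p = 0.933).

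Marker miRNAs of other cell types were compared at day 90 as well. edgeR's test called 1 of 7 striated muscle miRNAs (miR-133b-3p, higher) and 1 of 2 hepatocyte miRNAs (miR-122-3p, higher). It called 0 of 6 leukocyte and 0 of 8 lung epithelial miRNAs. Among all 557 miRNAs tested there, 0.359% were called and 48.1% had a log2 fold change above 0. The called muscle miRNA was scarce: miR-133b-3p had a control mean of 1.63 ± 0.755 and an irradiated mean of 9.24 ± 1.76 CPM. The summed level of 7 striated muscle miRNAs was 371 to 1302 CPM in controls and 979 to 3921 CPM in irradiated lungs, with 7 of 7 fold changes above 0 and their median at 1.40 (log2). That of 6 leukocyte miRNAs was 19946 to 30300 and 15362 to 21412 CPM, with 4 of 6 below 0, and that of the hepatocyte miRNAs miR-122-5p and miR-122-3p was 166 to 473 and 660 to 1069 CPM. Lung epithelial miRNAs summed to 51368 to 59316 and 56053 to 66572 CPM, with 8 of 8 fold changes above 0 and their median at 0.13 (log2), and miR-141-3p was higher in every irradiated library than in any control (log2 fold change 0.71, edgeR adjusted p = 0.169). So were 3 of the 7 muscle and 2 of the 2 hepatocyte miRNAs, beside 4.85% of all miRNAs. Of the 6 leukocyte miRNAs 1, miR-150-3p, was lower in every irradiated library (log2 fold change -0.97, edgeR adjusted p = 0.118), beside 2.33% of all miRNAs. No marker of these lists was at 0 in every library. miR-486-5p, which muscle also makes, had a log2 fold change of -0.06 at that day. At day 180 muscle miRNAs ran from 633 to 3191 CPM in controls and from 433 to 1866 CPM in irradiated lungs, and irradiated library 1 was the highest of the irradiated lungs in this list as in 8 of the 9 lists, all but hepatocytes. The part of these cell types in the miR-144 and miR-486 values was not tested.

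Within groups the 4 measurements spread unequally. The within-group SD of log2 CPM over the 24 libraries was 0.23 for miR-451a, 0.50 for miR-144-5p, 0.62 for miR-144-3p and 0.74 for miR-486-5p. Among 221 miRNAs with a mean of at least 100 CPM, whose median SD was 0.36, 45 had a smaller SD than miR-451a, 184 a smaller SD than miR-144-3p and 195 a smaller SD than miR-486-5p.

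Deviations of each library from its group mean were compared between the 4 measurements over all 24 libraries, 6 pairs in all, with Benjamini-Hochberg adjustment of the permutation p over the pairs. miR-451a and miR-486-5p had a Pearson r of 0.73 (permutation p = 0.00026, adjusted 0.00156) and a Spearman rho of 0.42 (0.0425, adjusted 0.127). Without the 2 libraries farthest in miR-451a, irradiated libraries 1 and 3 of day 180, r was 0.40, so the size of the relation rests on them. miR-144-3p and miR-451a had r = 0.25 (permutation p = 0.242, adjusted 0.363) and rho = 0.17 (0.424, adjusted 0.424), and r = -0.03 without the 2 farthest in miR-144-3p. The arms miR-144-3p and miR-144-5p had r = 0.38 (permutation p = 0.0665, adjusted 0.133) and rho = 0.42 (0.0392, adjusted 0.127), with r = 0.45 without the 2 farthest. miR-144-3p and miR-486-5p had r = 0.49 (permutation p = 0.0108, adjusted 0.0325) and rho = 0.28 (0.183, adjusted 0.275), with r = 0.23 without the 2 farthest. miR-144-5p had r = 0.22 with miR-451a (permutation p = 0.305, adjusted 0.366, rho = 0.29 with p = 0.161) and r = 0.11 with miR-486-5p (permutation p = 0.616, adjusted 0.616, rho = 0.25 with p = 0.241). Without the 2 libraries farthest in miR-144-5p these were 0.11 and -0.01. Irradiated library 1 of day 180 moved all 6 pairs: without it r was 0.47 for miR-144-5p with miR-451a and 0.45 for miR-144-5p with miR-486-5p. It was then 0.52 for the 2 arms, 0.06 for miR-144-3p with miR-451a, 0.37 for miR-144-3p with miR-486-5p and 0.54 for miR-451a with miR-486-5p. All values of a library share its depth and scaling. The permutations moved deviations freely between groups, although the groups differed in spread, so these p-values may be too small.

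**Figure D5:**
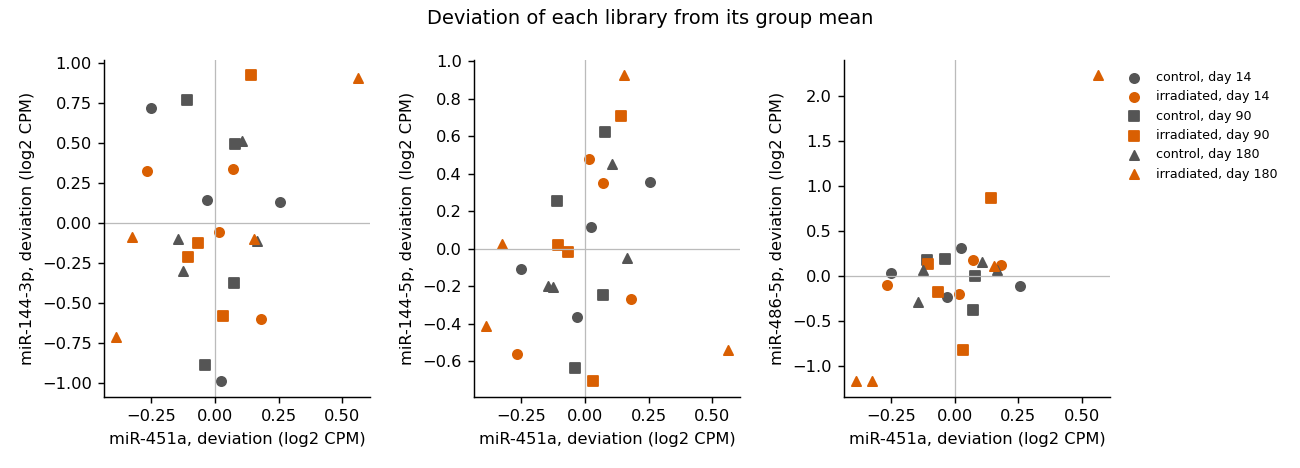
Deviation of each library from its group mean (log2 CPM) for miR-451a on the x axis and miR-144-3p, miR-144-5p or miR-486-5p on the y axis (grey control, orange irradiated, marker by day, one point per library). The widest points along the x axis belong to irradiated lungs of day 180, and miR-144-3p spreads with little relation to miR-451a (r = 0.25, or 0.06 without irradiated library 1 of day 180).

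The 5 miRNAs whose deviations were most like those of miR-451a, among 401 with a mean of at least 10 CPM, were miR-26a-5p (Pearson r = 0.96), miR-126a-3p (0.94), miR-22-3p (0.94), miR-99a-5p (0.92) and miR-181a-5p (0.91), over 24 libraries and given as a description. Each had a mean of 26269 to 35700 CPM, near that of miR-451a, and r was 0.89 to 0.93 without irradiated library 1 of day 180. For miR-144-3p, looked at after the values were seen, they were miR-193a-3p (0.76), the leukocyte miRNA miR-142a-5p (0.71), miR-142b (0.70), miR-136-5p (0.69) and miR-142a-3p (0.69).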

How the data were processed

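Small RNA of mouse lung, cut from a gel at 18 to 30 nt, was sequenced in 24 libraries (6 groups of 4), per the labels' protocols. The authors deposited 1 table per time point with a count per mature miRNA and library, not normalised, and an RPM value, the count divided by a library total of 11984009 to 16081430, which exceeds the sum of the listed counts and is not further described. Per the submitters' processing notes, the tools include Bowtie2 and the build GRCm38.p6, without saying for which step. The reads carry no stated molecular identifiers, and intervals cover counting error only.

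The members and the lists were chosen with earlier results of these data known. miR-486a-5p and miR-486b-5p were merged into 1 row (1 of the identical pair at day 14 and 90, the sum at day 180). Each time point was fitted alone with edgeR 4.0.16 in R 4.3.3 (filterByExpr, TMM, quasi-likelihood F-test with the legacy fit, no block, Benjamini-Hochberg adjustment, threshold 0.05), and each SE was taken from the fold change and its F statistic. Differences between time points came from 1 fit of 24 libraries on shared miRNAs. The code was tested on simulated data. Ratios within a library were tested by exact permutation, two-sided. Named beyond the members were the 5 miRNAs most like miR-451a and fixed lists. Alternatives were RLE size factors, no filter, DESeq2 1.42.0, all libraries in 1 fit, the replicate number as a block, separate miR-486 rows, the deposited RPM values with limma 3.58.1 on log2(RPM + 1) at a mean RPM of at least 1, and leaving out each library. The replicate numbers paired the libraries at day 14, where same-numbered libraries deviated together (r = 0.17 to 0.47), and not at day 90 (-0.22 to 0.36) or day 180 (-0.36 to -0.11). The main tests, those of day 14 included, did not use these pairs. Chi-square per degree of freedom was at least 61.9 for every pair of libraries within a time point, and none was counted as a copy.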

Additional observations from a re-analysis of the deposited data

Results flagged for a closer look

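At day 180 the irradiated libraries held 2537, 552, 233 and 242 CPM of miR-486-5p, and library 1 lay so far from the other 3 that its gap took 0.862 of the group's range, above Dixon's 95% critical value for 4 values. On the deposited RPM scale (444, 129, 60.1 and 59.4 RPM) the gap was a smaller part of the range, below that critical value. With CPM and ratios, library 1 was the only such library in 42 groups of 4 values examined. At this critical value chance gives about 1 in 20 independent groups. The 42 groups share libraries and miRNAs, so whether library 1 lies beyond chance was not tested.

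The log2 ratio of miR-144-3p to miR-451a moved in opposite directions in irradiated lungs of day 90 and day 180, every library included. The radiation effect differed by -2.31 (exact permutation p = 0.000408, adjusted 0.00367). This test was added after the values had been seen, and its p follows from the separation of the groups. Within day 90 and within day 180 the adjusted permutation p of the ratio was 0.0857, which did not pass.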

How the results depend on the processing

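The log2 fold changes of the 4 measurements were recomputed 183 times over the alternatives, of which 169 kept their direction and side of the threshold, 2 passed it newly (miR-144-3p at day 90 with DESeq2, 1.46, and without the filter, 1.46) and 12 changed sign. Among these, miR-451a was 0.00922 at day 90 on deposited RPM, and miR-486-5p at day 180 was -0.57 with the replicate block, -0.26 for miR-486b-5p alone and -0.54 on deposited RPM. Leaving out 1 library moved miR-451a of day 14 between -0.0015 and 0.15, that of day 90 between -0.10 and 0.0099, and that of day 180 between -0.32 and 0.039. It gave -0.41 to 0.15 and -1.15 to 0.55 for miR-486-5p at day 90 and day 180.

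The number of miRNAs called at day 14 was 7 without the filter, 1 with DESeq2, 1 with all libraries in 1 fit and 0 to 1 without any 1 library. At day 90 it was 18, 19 and 0 in that order, 0 with the replicate block and 0 to 8 without 1 library (8 without control library 4). At day 180 it was 18, 30 and 33, and 0 to 3. The differences between days had 1, 3 and 2 calls with DESeq2 (day 90 minus 14, 180 minus 14, 180 minus 90), and 0 to 0, 0 to 2 and 0 to 9 without 1 library (9 without irradiated library 1 of day 180).

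Differences of the radiation effect on miR-486-5p changed sign too: between day 180 and day 14 to 0.0341 with RLE size factors and 0.0344 with DESeq2 (-1.45 to 0.21 without 1 library), and between day 180 and day 90 to -0.42 with the replicate block (-1.10 to 0.60). Without 1 library they ran from -0.34 to 0.19 for miR-144-5p between day 90 and day 14 and from -0.31 to 0.027 for miR-451a between day 180 and day 90.

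With pairing by replicate number, the exact sign-flip test cannot go below 0.125: that was its p for the arm share (3.35) and the ratio of miR-144-3p to miR-451a (1.55) at day 90 and for that ratio at day 180 (-0.77). At day 14, where the numbers pair the libraries, the replicate block changed no call. Without 1 library, where an exact permutation p cannot go below 0.0571, these 3 ran from 3.02 to 3.98, 1.26 to 1.84 and -0.88 to -0.63. The arm share difference ran from -0.15 to 2.26 at day 14 and from -1.68 to 0.37 at day 180, and that of miR-486-5p to miR-451a from -0.38 to 0.14 at day 90. Its radiation effect between day 180 and day 90 ran from -0.79 to 0.045, and between day 180 and day 14 from -1.16 to -0.32. For the arm share the effect ran from 1.09 to 3.50 between day 90 and day 14 (3.50 without control library 4 of day 14, exact permutation p = 0.0453) and from -5.03 to -2.98 between day 180 and day 90. Except where fewer libraries set the limit, the cause of these changes was not tested. miR-144-5p, with as few as 76 reads, had the least depth.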
